A study of Mus musculus with 10 samples.

Results

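Matricellular proteins are secreted into the extracellular matrix, where they alter how cells attach, migrate and receive growth factors rather than bear load. The set described here holds 10 genes: the thrombospondins Thbs1, Thbs2, Thbs3 and Thbs4, the collagen-binding glycoprotein Sparc and its relative Sparcl1, tenascin C (Tnc), periostin (Postn), and the CCN-family genes Ctgf and Cyr61. Members were taken by gene symbol, and all 10 had a row among the 23930 amplicons of the raw count table. The list was chosen by symbol, with the members' levels and log2 differences between the genotypes already known, so these are given as a description that supports nothing.

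The tissue was epididymal white adipose, the visceral fat next to the epididymis, from male C57BL/6 mice aged 18 weeks. All animals had been on a diet high in sucrose and fat for 8 weeks. The 5 wild-type mice were Srgn+/+, and the 5 Srgn-knockout mice were Srgn-/-, which lack serglycin, a proteoglycan of secretory granules in mast cells and other blood-derived cells. Neither a lean control diet nor a second sex or depot is part of these groups, and how the Srgn allele was made is not given in the sources used here.

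Each of the 10 libraries held 7824764 to 10757779 reads, from 1 amplicon per gene. Srgn reads numbered 776 to 1301 in wild-type libraries, and 0 to 12 in those of Srgn-knockout mice. Adipocyte markers such as Fabp4, a fatty acid carrier, and Cidec, a lipid-droplet protein, were abundant, and the 11 adipocyte genes summed to 31921 to 48625 CPM (normalized reads in each 1000000) in every library. Epididymis genes summed to 628 CPM in wild-type 4, 4888 in Srgn-knockout 3 and 1087 in Srgn-knockout 5, and to no more than 20.7 CPM elsewhere. The differences between genotypes of the tested members, and their correlations, are therefore also given without these 3 libraries. In bulk tissue, fewer cells of a type and less RNA per cell cannot be told apart.

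Thrombospondins are multimeric glycoproteins. Thbs1 and Thbs2 form trimers, bind the receptors Cd36 and Cd47 and restrain blood vessel growth, and Thbs1 also activates latent TGF-beta. Thbs3 and Thbs4 form pentamers. Sparc and Sparcl1 bind collagen, Tnc appears in injured and inflamed matrix, and Postn aids collagen cross-linking. Ctgf and Cyr61 are standard target genes of the YAP and TEAD transcription regulators, which respond to mechanical load. Several of these proteins, Thbs1 and Sparc among them, are secreted by fat tissue and have been studied in obesity and fibrosis.

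Of the 10 members, Thbs1 had the widest gap between the genotypes, and Thbs2 was lower by a smaller amount in Srgn-knockout fat. Sparc, Sparcl1 and Postn had higher values in Srgn-knockout fat, and the Srgn-knockout means of Thbs3, Tnc, Ctgf and Cyr61 were 91.6% to 102% of the wild-type means. Values were higher in Srgn-knockout fat for 5 of 9 tested members, as they were for 49.7% of all tested genes. By the edgeR quasi-likelihood test with Benjamini-Hochberg adjustment over all genes, 0 of the 9 tested members passed the threshold of 0.05 (adjusted p from 0.196 to 0.971). Over all 12719 tested genes, 0.00786% were called, which is Srgn alone. At an unadjusted p under 0.05 there were 3 members, Thbs1, Thbs2 and Sparc, where 12.8% of all tested genes lay. DESeq2 called 1 member, Thbs1 (adjusted p = 0.00693), and limma-voom called 0. Over all genes with an adjusted p, DESeq2 called 1.82% and limma-voom 0.0786%. The members were chosen with their differences known, so these counts and calls cannot be read as an excess among them. The median log2 fold change of the tested members was 0.03, against -0.001 over all tested genes. The groups overlapped for every tested member on the normalized CPM scale, whereas 2.78% of all tested genes had groups that did not overlap.

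**Figure D1:**
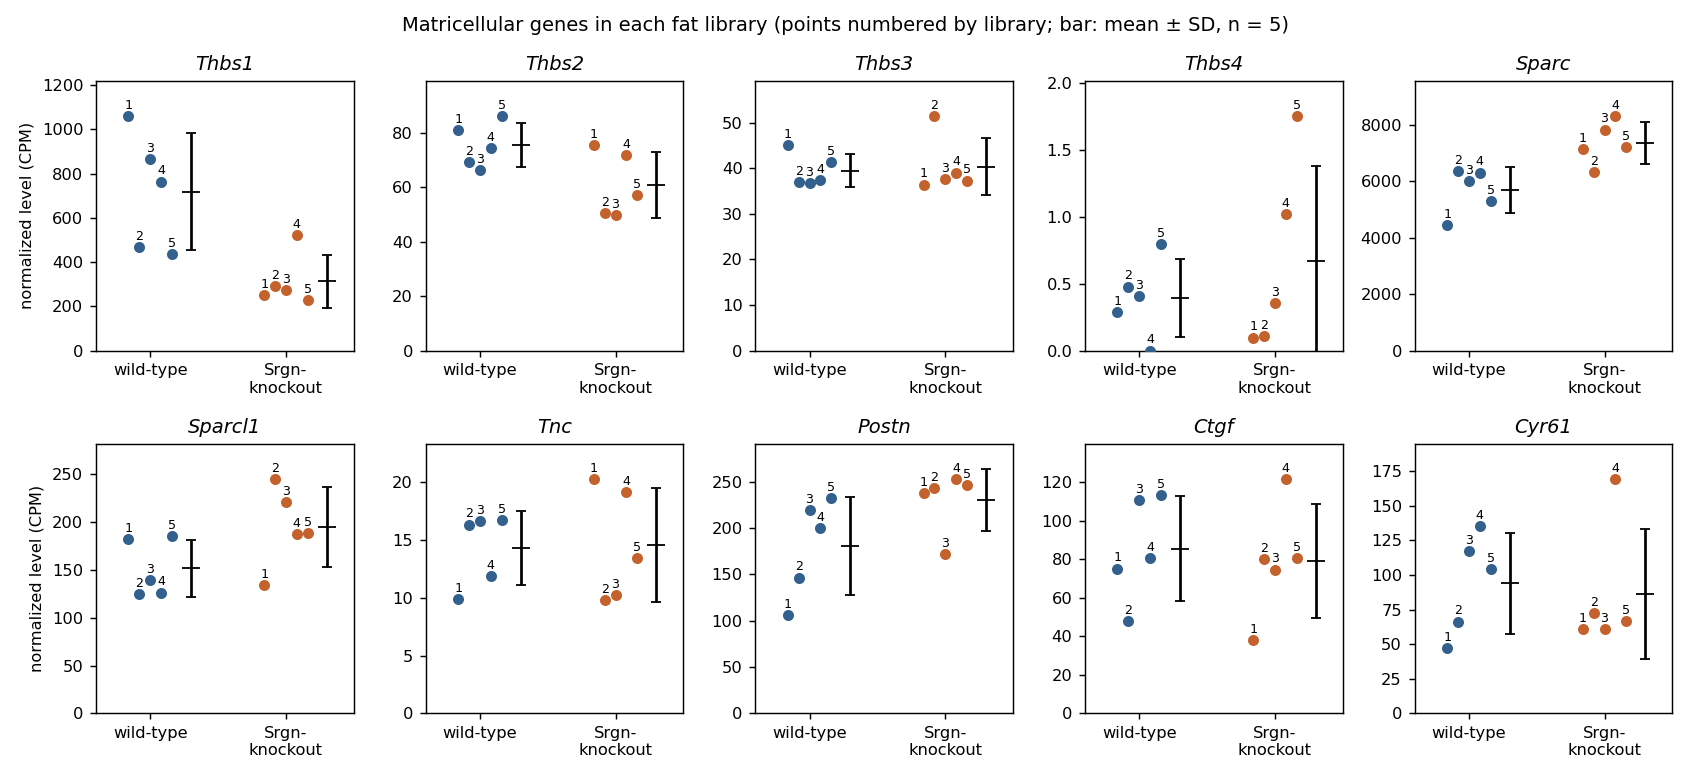
Normalized level in CPM (y axis, from 0) of each of the 10 matricellular genes in the 5 wild-type and 5 Srgn-knockout libraries (points, numbered by library), with the mean and SD of each group beside them. For Thbs1, 4 of the 5 Srgn-knockout libraries lie below every wild-type library; for Thbs4 the lower end of the Srgn-knockout SD bar runs under 0 and is not drawn.

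Thbs1 had 1060, 469, 865, 764 and 438 CPM in wild-type 1 to 5 and 252, 293, 272, 523 and 230 CPM in Srgn-knockout 1 to 5. Wild-type 1, 3 and 4 were the highest, and every Srgn-knockout library except number 4 lay below all wild-type libraries. The means were 719 ± 265 CPM and 314 ± 119 CPM (SD, n = 5), so that the Srgn-knockout mean was 43.6% of the wild-type mean. On the log2 scale the difference was -1.20 (SE 0.293). It was -1.46 without Srgn-knockout 4, -1.02 without wild-type 1 and -0.99 without the 3 epididymis libraries. These differences come from amplicon counts of 2104 to 11018 reads per library, so counting error is a small part of the spread.

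Platelets and macrophages also make or carry thrombospondin 1, so their markers are given beside it. The summed level of 5 platelet genes was 116 to 252 CPM in the wild-type libraries and 101 to 213 CPM in the others, with lower values for 3 of 3 tested genes. Macrophage genes summed to 2021 to 6913 CPM and 2057 to 4141 CPM, with lower values for 13 of 13 tested genes and a median log2 fold change of -0.51. Across the 10 libraries, Thbs1 had r = 0.07 with the platelet score and r = 0.18 with the macrophage score (permutation p = 0.854 and 0.614; rho = 0.14 and 0.04, permutation p = 0.708 and 0.919; adjusted p = 0.895 and 0.803 over the 81 pairs described below). Without the 2 libraries farthest from the median of the score, r was -0.31 and 0.56, and without the 3 epididymis libraries it was -0.25 and -0.12. Once each genotype was centred at its mean, r was -0.47 with the platelet and -0.25 with the macrophage score. No gene of either list was at 0 reads in every library. Lymphocyte genes had lower values for 6 of 6 tested genes, and summed to 18.6 to 27.4 CPM in Srgn-knockout libraries, all below the 29.9 to 47.2 CPM of the wild-type libraries. Their score had r = 0.54 with Thbs1 (permutation p = 0.109, adjusted p = 0.389; rho = 0.47, permutation p = 0.18), r = 0.53 without the 2 farthest libraries, r = 0.61 without the 3 epididymis libraries, and r = -0.32 once each genotype was centred at its mean. The part of these cells in the Thbs1 difference was not tested.

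Thbs2 had 80.9, 69.3, 66.2, 74.4 and 86.0 CPM in wild-type 1 to 5 and 75.5, 50.4, 49.6, 71.7 and 57.1 CPM in Srgn-knockout 1 to 5. Srgn-knockout 2, 3 and 5 lay below every wild-type library, while numbers 1 and 4 fell inside the wild-type range. The means were 75.4 ± 8.16 and 60.9 ± 12.1 CPM (SD, n = 5; log2 -0.31, SE 0.134), and without the 3 epididymis libraries the log2 difference was -0.20. Thbs3 was the steadiest member, with 36.6 to 45 CPM in wild-type (median 37.4) and 36.4 to 51.4 CPM in Srgn-knockout (median 37.6). Its log2 difference was 0.03, and 0.08 without the 3 epididymis libraries. The SD of its log2 level over the 10 libraries was 0.162, lower than in all but 17.4% of tested genes.

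Thbs4, best known from muscle and tendon, was close to the detection limit. Wild-type 1 to 5 gave 3, 5, 4, 0 and 6 reads, and Srgn-knockout 1 to 5 gave 1, 1, 3, 8 and 16. The 0 reads of wild-type 4 allow a level of up to 0.343 CPM, that of 3 reads. Srgn-knockout 5 alone held 16 of the 29 reads of its group, and the gene was removed by the low-count filter and not tested. PCR reads carry no molecular identifiers here, so such limits cover counting error only.

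Sparc, one of the main collagen-binding glycoproteins secreted by stromal and fat cells, had 4439, 6356, 5997, 6302 and 5292 CPM in wild-type 1 to 5. It had 7146, 6313, 7826, 8301 and 7210 CPM in Srgn-knockout 1 to 5. All Srgn-knockout libraries but number 2 lay above every wild-type library, and number 2 lay just under wild-type 2. The means were 5677 ± 812 and 7359 ± 753 CPM (SD, n = 5), a log2 difference of 0.37 (SE 0.130), and of 0.40 without the 3 epididymis libraries. Whether the groups overlap depended on the scaling. In the authors' RPM values, which correct for total reads alone, the lowest Srgn-knockout library had 6675 and the highest wild-type library 6183. The share of all tested genes with groups that do not overlap was taken in CPM alone. The separation of Sparc in RPM therefore has no background to be set against.

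Sparcl1, also called hevin, had 182, 125, 139, 126 and 185 CPM in wild-type 1 to 5 and 134, 245, 220, 187 and 188 CPM in Srgn-knockout 1 to 5. In Srgn-knockout fat it exceeded the highest wild-type value in 4 of 5 libraries, and library 1 fell among the lower wild-type values. In the authors' RPM values 3 of 5 exceeded it, so this count also depended on the scaling. The log2 difference was 0.37 (SE 0.168), and 0.26 without the 3 epididymis libraries. Endothelial markers, which label a vascular source of Sparcl1, had higher values in Srgn-knockout fat for 11 of 13 tested genes (median log2 0.25), and their sum was 938 to 1301 CPM there, against 893 to 1183 CPM in wild-type fat. None of these 13 genes was at 0 reads in every library, and their part in the Sparcl1 difference was not tested.

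Postn had 106, 147, 219, 200 and 233 CPM in wild-type 1 to 5 and 238, 243, 172, 253 and 247 CPM in Srgn-knockout 1 to 5. Wild-type 1 and 2 were the lowest of all, and 4 of 5 Srgn-knockout libraries exceeded every wild-type library. The log2 difference was 0.35 (SE 0.198), 0.21 without wild-type 1 and 0.48 without the 3 epididymis libraries. Tnc had 9.91, 16.3, 16.7, 11.9 and 16.7 CPM in wild-type 1 to 5 and 20.3, 9.79, 10.2, 19.1 and 13.4 CPM in Srgn-knockout 1 to 5. Low and high Tnc libraries occurred in both genotypes, and the log2 difference was 0.03 (SE 0.235), and 0.14 without the 3 epididymis libraries.

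**Figure D2:**
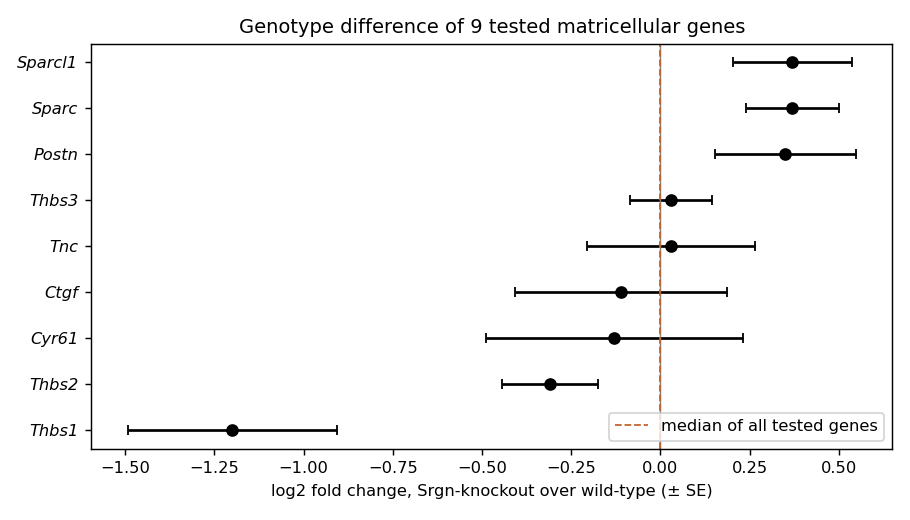
Log2 fold change of Srgn-knockout over wild-type (x axis, points with SE bars) for the 9 tested matricellular genes, ordered by value; the dashed line marks the median of all tested genes. Thbs1 lies at -1.20, while the other 8 genes lie between -0.31 and 0.37.

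Ctgf, which encodes connective tissue growth factor, had 75.2, 47.8, 110, 80.5 and 113 CPM in wild-type 1 to 5 and 38.2, 80.1, 74.6, 122 and 80.7 CPM in Srgn-knockout 1 to 5. Cyr61, its close relative, had 47.1, 66.2, 117, 135 and 104 CPM and 60.7, 72.5, 61.1, 169 and 66.5 CPM in the same order. Both genes had their highest level in Srgn-knockout 4, and the genotypes overlapped over most of their range. The log2 differences were -0.11 (SE 0.297) for Ctgf and -0.13 (SE 0.360) for Cyr61, and their sign was not stable. Without Srgn-knockout 1 Ctgf had 0.06, and without the 3 epididymis libraries Ctgf had -0.11 and Cyr61 0.27. Per gene, the highest library exceeded the lowest by 3.18-fold for Ctgf, 3.60-fold for Cyr61 and 4.61-fold for Thbs1, against 1.41-fold for Thbs3.

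Promoter sequences are shown for Cyr61 and Thbs4, the members whose proximal promoter held a motif searched. The RefSeq promoter table, of assembly GRCm38.p6, matched 7 of the 10 members, all except Thbs1, Sparcl1 and Ctgf, and lists Cyr61 under its newer symbol Ccn1. The 250 bases before each start site were searched on both strands for GGAATG, the core of the TEAD motif, for TGANTCA, the AP-1 motif, and for the CArG box of serum response factor. The promoters below are printed 5′ to 3′ on the strand of the gene, with matches to GGAATG in capitals. All of these lie on the opposite strand, so that they read as the reverse complement of the motif.
Cyr61: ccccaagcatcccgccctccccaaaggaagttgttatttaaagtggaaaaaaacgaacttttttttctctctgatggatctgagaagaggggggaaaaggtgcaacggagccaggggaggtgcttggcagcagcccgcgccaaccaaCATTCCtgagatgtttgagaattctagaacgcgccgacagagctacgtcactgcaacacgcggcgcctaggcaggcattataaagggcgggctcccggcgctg
Thbs4: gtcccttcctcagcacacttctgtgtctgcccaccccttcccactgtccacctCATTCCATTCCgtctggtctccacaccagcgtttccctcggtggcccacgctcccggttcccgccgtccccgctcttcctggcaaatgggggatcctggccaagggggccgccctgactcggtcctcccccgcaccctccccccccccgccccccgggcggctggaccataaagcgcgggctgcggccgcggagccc
The Cyr61 stretch lies at chr3:145649986-145650235 on the minus strand and holds 1 match, at 103 to 98 bases before the start. The Thbs4 stretch lies at chr13:92794819-92795068 on the minus strand and holds 2 matches that share 1 base, from 197 to 187 bases before the start. GGAATG was present in 12.6% of all 32851 promoters of the same length, TGANTCA in 6.75% and the CArG box in 1.47%. The other 5 matched members, Thbs2, Thbs3, Sparc, Tnc and Postn, had no match to any of the 3 motifs in these windows. These files are on build mm9, so the coordinates describe the printed sequences and not the amplicons.

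How the members moved together was examined over the 10 libraries, as Pearson's r of log2 CPM for the 36 pairs of tested members. Ctgf and Cyr61 had r = 0.65 (permutation p = 0.0398, adjusted p = 0.423 over the 36 pairs) and rho = 0.81 (permutation p = 0.00726). Without the 2 libraries farthest from the median of Ctgf, r was 0.76. It was 0.65 after each genotype was centred at its mean, and 0.74 without the 3 epididymis libraries. Thbs3 and Sparcl1 had r = 0.67 (permutation p = 0.0278, adjusted p = 0.423) and rho = 0.60 (permutation p = 0.0726), and r was 0.52 without the 2 farthest libraries, 0.90 without the 3 epididymis libraries and 0.75 with each genotype centred. These were the 2 pairs with an unadjusted p under 0.05, and 0 of 36 passed after adjustment. Thbs1, also a target of the same mechanical pathway, had r = 0.31 with Cyr61 and r = 0.36 with Ctgf (permutation p = 0.378 and 0.308, adjusted p = 0.700 and 0.616; rho = 0.27 for both, permutation p = 0.448 and 0.447). Without the 2 libraries farthest from the median of Thbs1, r was 0.77 and 0.52. Without the 3 epididymis libraries it was 0.05 and 0.45, so that the relation with Cyr61 depended on which libraries were left out.

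Marker scores, the mean over a list of each gene's standardized log2 CPM, were then set against the members for the 9 marker lists with at least 3 tested genes. Of the 81 pairs, 11 had an unadjusted p under 0.05 and 0 passed after adjustment. The relations with the smallest p were both of Tnc. It ran against the mesothelial score, which marks the cell layer covering visceral fat, with r = -0.88 (permutation p = 0.00091, adjusted p = 0.0737) and rho = -0.92 (permutation p = 0.00057). Without the 2 farthest libraries r was -0.79, and without the 3 epididymis libraries it was -0.94. Tnc ran with the macrophage score, with r = 0.81 (permutation p = 0.00734, adjusted p = 0.170) and rho = 0.79 (permutation p = 0.0083). The corresponding values were 0.65 without the 2 farthest libraries and 0.86 without the 3 epididymis libraries. With each genotype centred at its mean, r was -0.88 for the mesothelial and 0.88 for the macrophage score. Both passed after adjustment in that form. Its permutations ignored the fitted genotype means, however, so its p-values are too small and nothing is concluded from this pass. Tnc also had r = -0.72 with the adipocyte score and r = -0.75 with the pericyte and smooth muscle score (permutation p = 0.0196 for both, adjusted p = 0.198; rho = -0.82 and -0.76, permutation p = 0.00611 and 0.0147). Without the 2 farthest libraries these were -0.62 and -0.75, and without the 3 epididymis libraries -0.72 and -0.88. Levels of all genes in a library share its scaling, and cell types share a fixed total, so these relations are not independent of each other.

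**Figure D3:**
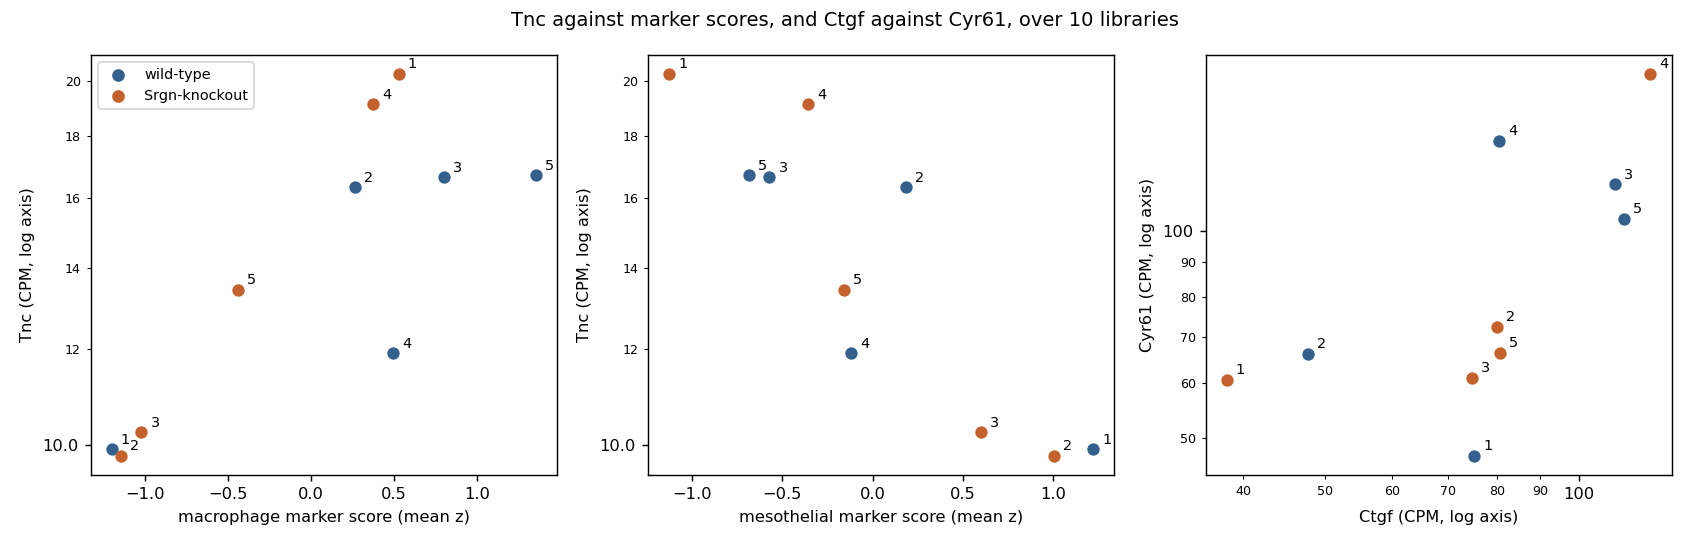
Left and middle, Tnc in CPM (log y axis) against the macrophage and the mesothelial marker score (mean standardized log2 CPM, x axis); right, Cyr61 against Ctgf, both in CPM on log axes. Each point is 1 of 10 libraries, numbered within its genotype and coloured by it. Tnc is near 10 CPM in wild-type 1 and Srgn-knockout 2 and 3, which have the lowest macrophage and the highest mesothelial scores.

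Sparcl1 ran with the endothelial score at r = 0.74 (permutation p = 0.0186, adjusted p = 0.198; rho = 0.77, permutation p = 0.0122), at 0.91 without the 2 farthest libraries, and at 0.64 both without the 3 epididymis libraries and with each genotype centred. Its relation with the fibroblast and progenitor score was r = 0.73 (permutation p = 0.01, adjusted p = 0.170; rho = 0.73, permutation p = 0.0202), 0.67 without the 2 farthest libraries, 0.90 without the 3 epididymis libraries and 0.77 with each genotype centred. Thbs3 had r = 0.83 with the fibroblast and progenitor score (permutation p = 0.0105, adjusted p = 0.170; rho = 0.77, permutation p = 0.0131), but 0.43 without the 2 farthest libraries, on which the size of this relation rests in part. It was 0.81 without the 3 epididymis libraries and 0.83 with each genotype centred. Thbs2 ran against the pericyte and smooth muscle score at r = -0.78 (permutation p = 0.0104, adjusted p = 0.170; rho = -0.72, permutation p = 0.0231), at -0.65 both without the 2 farthest libraries and without the 3 epididymis libraries, and at -0.71 with each genotype centred. Sparc had no marker score with an unadjusted p under 0.05, with r = 0.23 for the endothelial and -0.19 for the fibroblast and progenitor score (permutation p = 0.516 and 0.587, adjusted p = 0.781 and 0.796; rho = 0.49 and -0.13, permutation p = 0.155 and 0.733). Without the 2 farthest libraries these were 0.04 and 0.06, and without the 3 epididymis libraries 0.08 and -0.09. With each genotype centred they were -0.31 and -0.51.

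**Figure D4:**
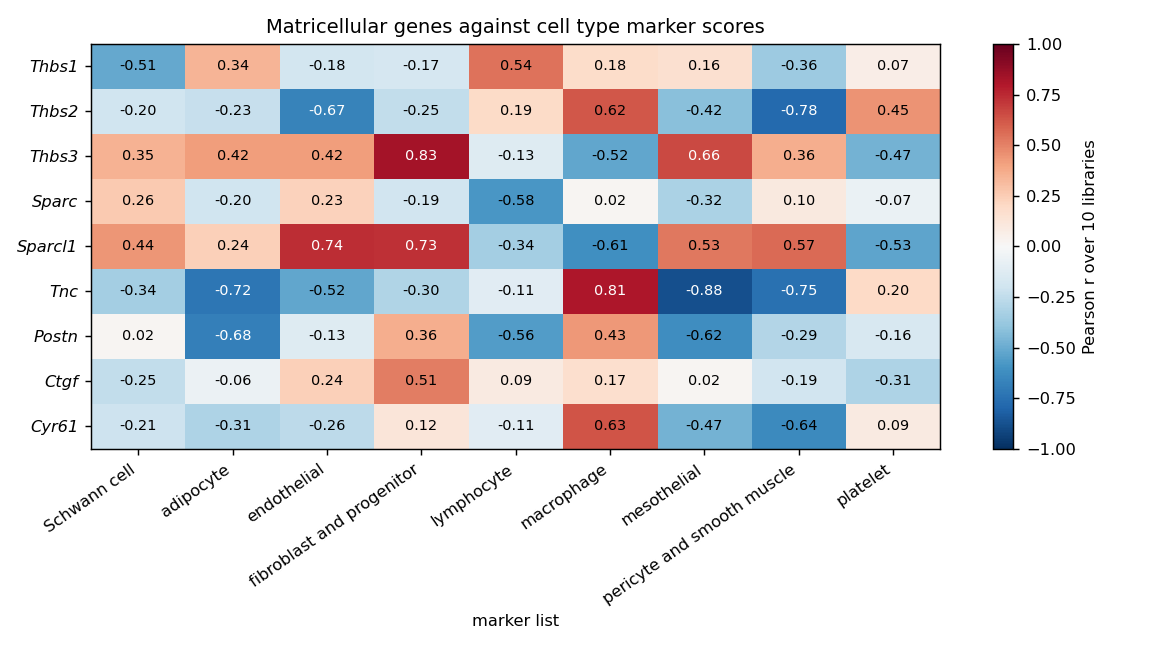
Pearson's r over 10 libraries between the log2 CPM of each of the 9 tested matricellular genes (rows) and the score of each of the 9 marker lists (columns), printed in each cell and coloured from -1 (blue) to 1 (red). The row of Tnc holds the most negative value, -0.88 with mesothelial markers, and the highest positive value is 0.83, for Thbs3 with fibroblast and progenitor markers.

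The genes with the most similar pattern were sought among 10210 tested genes with a mean of at least 5 CPM, by Pearson's r of log2 CPM over the 10 libraries, as a description. For Thbs1 these were Dlc1 (r = 0.931), Chchd1 (0.920) and Cds2 (0.912). For Thbs2 they were Dpm2 (0.949), Eps15l1 (0.949) and Glud1 (0.923), and for Thbs3 they were Fam208a (0.933), Aspn (0.923) and Gcc2 (0.921). Sparc was nearest to Gm34159 (0.962), App (0.957) and Tnks (0.952), and Sparcl1 to Twsg1 (0.965), Kdm6a (0.952) and Apbb2 (0.939). Tnc was nearest to Gm5150 (0.959), Cd86 (0.953) and Tnip2 (0.945), and Postn to Dctn5 (0.954), Prc1 (0.938) and Dhx16 (0.930). The nearest genes of Ctgf were Wdr59 (0.908), Wee1 (0.904) and Gxylt2 (0.886), and those of Cyr61 were Tnfaip6 (0.929), Akr1b10 (0.907) and Ranbp9 (0.899). No gene was among the 3 nearest of more than 1 member. These values were picked as the highest among 10210 genes over 10 libraries, so their size is partly due to the search. No p was computed for them. With each genotype centred at its mean, r was 0.81 for Dlc1, 0.83 for Chchd1 and 0.75 for Cds2 with Thbs1. For the genes named for the other members the centred r was 0.88 to 0.96.

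The partners of these proteins were taken from 6 lists of other matricellular proteins, receptors, TGF-beta signalling, YAP and TEAD genes, immediate early genes and matrix partners. Of 117 tested genes on them, 0 passed in edgeR, DESeq2 or limma-voom, and 14 (12%) had an unadjusted p under 0.05 in edgeR, near the 12.8% of all tested genes. Among 20 tested other matricellular genes, 6 had higher and 14 lower values in Srgn-knockout fat (median log2 -0.04). The 4 with the smallest p were the elastic-fibre protein Fbln2 (395 ± 42.9 and 318 ± 33.2 CPM in wild-type and Srgn-knockout), its relative Efemp1 (527 ± 123 and 446 ± 65 CPM), the TGF-beta-induced protein Tgfbi (214 ± 32.5 and 183 ± 60.3 CPM) and the CCN-family gene Nov (26.3 ± 8.75 and 31.6 ± 9.53 CPM).

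Of the 20 tested receptors, 8 had higher and 12 lower values (median log2 -0.11). The thrombospondin receptor Cd36, also a fatty acid transporter, averaged 1535 ± 226 CPM in wild-type fat, against 1892 ± 86.7 CPM in Srgn-knockout fat (SD, n = 5; log2 0.30). Lrp1, which takes up thrombospondin complexes, had 1202 ± 241 and 865 ± 199 CPM (log2 -0.48). The integrin subunit Itga4 had 32.3 ± 6.85 and 23.3 ± 5.55 CPM, and Stab1, a scavenger receptor that clears Sparc, had 132 ± 39.0 and 98.5 ± 11.6 CPM (log2 -0.47 and -0.42). Cd36 and Sparc had higher means in Srgn-knockout fat and Thbs1, Lrp1 and Stab1 lower ones, with edgeR adjusted p of 0.309 and 0.282 for the former and 0.196, 0.309 and 0.361 for the latter.

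In the TGF-beta list, 14 of 22 genes had higher and 8 lower values (median log2 0.07). Its 4 genes with the smallest p were the endothelial receptor Acvrl1 (135 ± 16.9 and 107 ± 10.3 CPM, log2 -0.34), the signal transducers Smad3 (40.0 ± 10.5 and 29.5 ± 4.17 CPM, log2 -0.44) and Smad2 (37.0 ± 4.35 and 43.2 ± 3.52 CPM, log2 0.22), and the repressor Skil (41.0 ± 5.10 and 47.6 ± 4.94 CPM, log2 0.22). In the YAP and TEAD list, 10 of 26 genes had higher and 16 lower values (median log2 -0.06). Igfbp3, a carrier of insulin-like growth factors, had 20.8 ± 1.82 and 27.7 ± 3.64 CPM (log2 0.41), and the ectoenzyme Nt5e had 4.07 ± 1.85 and 7.32 ± 2.94 CPM (log2 0.83). The pathway regulators Amotl1 (252 ± 24.5 and 219 ± 14.5 CPM) and Vgll4 (62.4 ± 8.92 and 52.0 ± 5.74 CPM) had log2 differences of -0.20 and -0.26.

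Immediate early genes are induced within minutes of stress or handling, as Ctgf, Cyr61 and Thbs1 can be. Of 20 tested, 7 had higher and 13 lower values (median log2 -0.05). They were led by the transcription factors Egr3 (4.66 ± 2 and 2.31 ± 0.667 CPM, log2 -1.01), Klf6 (259 ± 35.3 and 217 ± 26.3 CPM, log2 -0.26), Klf4 (76.3 ± 6.95 and 87.1 ± 11.5 CPM, log2 0.19) and Atf3 (124 ± 95.7 and 59.6 ± 34.5 CPM, log2 -1.06). Among the 9 matrix partners, 5 had higher and 4 lower values (median log2 0.04), with the fibrillar collagens Col1a2 at 511 ± 123 and 686 ± 19.8 CPM (log2 0.43) and Col3a1 at 769 ± 152 and 916 ± 76.2 CPM (log2 0.25). The basement membrane collagen Col4a1 (log2 0.20) and the fibril regulator Col5a1 (log2 0.07) followed. No gene on these 6 lists had genotype groups that did not overlap.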

How the data were processed

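Total RNA of 10 fat samples was amplified with the Ion AmpliSeq mouse transcriptome kit and read on an Ion S5 XL sequencer, per the labels' protocols. The authors deposited raw counts of reads for 23930 amplicons. They also deposited RPM values (reads in each 1000000), which equal the counts scaled by each column total. The submitters' processing notes name build mm9. The aligner is not given in the sources used here, nor is the counter. Groups follow the genotype label. Libraries are numbered in accession order, which pairs no animals. The edgeR p-values set the genotype difference against the spread between libraries of a genotype. Permutation p-values of the correlations shuffle libraries across both genotypes.

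Counts were filtered with filterByExpr (minimum count 10, minimum total 15, 12719 genes kept), scaled by TMM factors and tested with edgeR 4.0.16 (robust quasi-likelihood, two-sided, no covariate) in R 4.3.3. Fold changes are log2 with their standard error. Alternatives used DESeq2 1.42.0 and limma 3.58.1. Correlations used log2 CPM (prior count 2) and two-sided permutation tests with 100000 permutations, or with every possible permutation where libraries were left out. The code was tested on simulated data. Members and lists were chosen with earlier results of these data known. Named genes are Srgn, the members, the 3 nearest genes of each, up to 4 genes with the smallest p per pathway list and up to 2 abundant genes per marker list. The marker lists of skeletal muscle and epididymis had too few tested genes for a score. Levels of different genes are not compared, since amplicon efficiency differs.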

Additional observations from a re-analysis of the deposited data

Results flagged for a closer look

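In 4 of the 20 groups examined, 2 genotypes for each of 10 members, 1 Srgn-knockout library stood apart from the other 4 by Dixon's gap, which is the distance to the nearest library divided by the range, with a critical value of 0.71. The critical value is set to flag about 1 in 20 independent groups of normally distributed values. The groups here are CPM levels, and the same libraries serve all 10 members, so they are not independent. The share flagged over all tested genes was not computed, so nothing is concluded from the number flagged. Srgn-knockout 4 was the highest for Cyr61 (gap 0.891, 169 CPM against 72.5 CPM for the next) and for Thbs1 (gap 0.786, 523 CPM against 293 CPM). Srgn-knockout 2 was the highest for Thbs3 (gap 0.822, 51.4 CPM against 39.0 CPM). Srgn-knockout 3 was the lowest for Postn (gap 0.808, 172 CPM against 238 CPM). Without Srgn-knockout 4 the log2 difference of Cyr61 was -0.52 in place of -0.13.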

How the results depend on the processing

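With the raw-count fit, 1 gene over the whole table passed and it was lower in Srgn-knockout. With no low-count filter 3 passed, all 3 lower. The DESeq2 total was 226, made up of 118 higher and 108 lower genes. With limma-voom it was 10, of which 2 were higher and 8 lower. Leaving out 1 library at a time gave 1 to 2 genes, all lower, with 2 without wild-type 5 or Srgn-knockout 1. Of the members, 1 (Thbs1) passed in DESeq2 and 0 in the other 18 of 19 alternatives. Without the 3 epididymis libraries the adjusted p was 0.999 for Thbs1, as for every other tested member, while its log2 difference was -0.99. The log2 difference of Thbs1 ran from -1.46 to -0.99, of Thbs2 from -0.40 to -0.20, of Sparc from 0.30 to 0.43, of Sparcl1 from 0.26 to 0.48 and of Postn from 0.21 to 0.48. Tnc had the other sign in 5 alternatives, Ctgf in 3, Cyr61 in 2 and Thbs3 in 1. Of the 36 member pairs, 0 passed in any of 15 alternatives. Of the 81 relations with marker scores, 0 passed with Pearson's r, 1 with Spearman's rho (Tnc with mesothelial markers), 2 with genotypes centred (Tnc with mesothelial and with macrophage markers) and 0 to 3 when 1 library was left out. The 3 came without wild-type 1 and were Thbs2 with macrophage and with pericyte and smooth muscle markers, and Thbs3 with fibroblast and progenitor markers. There was 1 without wild-type 2 (Tnc with mesothelial), without wild-type 5 (Sparcl1 with endothelial) and without Srgn-knockout 3 (Sparcl1 with fibroblast and progenitor markers). The p-values with genotypes centred are too small, since their permutations ignored the fitted genotype means. The causes of the changes between alternatives were not tested. No paired analysis was possible because the labels number no animals across the genotypes. Depth limits Thbs4 alone among the members.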
